A study of Mus musculus with 28 samples.

Results

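The genes described here are the receptors and intracellular mediators of bone morphogenetic protein (BMP) signalling and the Id genes, which are classical targets of that pathway. They were taken by name as a fixed set of 10: Bmpr1a, Bmpr1b, Bmpr2, Acvr1, Smad1, Smad5, Id1, Id2, Id3 and Id4. All 10 were listed among the 23453 genes of a table of exonic counts and the 20422 genes of a table of intronic counts, both from single mouse brain cells.

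BMP ligands bind a complex of type II receptors such as Bmpr2 and type I receptors such as Bmpr1a (ALK3), Bmpr1b (ALK6) and Acvr1 (ALK2), and the type I receptor then phosphorylates Smad1 and Smad5. These Smads enter the nucleus with Smad4 and raise the transcription of Id genes. Id proteins have a helix-loop-helix domain but no DNA-binding region, so they hold E proteins in inactive pairs and restrain neurogenic and oligodendroglial bHLH factors. In the developing brain the pathway is known for favouring astrocytic over neuronal and oligodendroglial differentiation.

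The study sequenced RNA of 28 single cells from mouse cortex. The labels name 12 neurons and 8 astrocytes from primary culture of C57/BL6 mice, harvested by pipette, and 8 interneurons of C57/BL6/N mice drawn from prefrontal cortex slices with a patch-clamp pipette. For the cultured cells the labels speak of a 3-month old male mouse, with no treatment named and no statement of which cells shared an animal or dish. The paper that reported the data instead describes its dispersed mouse cultures as embryonic and of mixed sex. It names a 3-month old male as the source of fixed tissue sections. The age and sex of the cultured cells are thus not settled here. Cultured cells and slice cells also differed in library kit and sequencer.

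The 28 table columns bear codes, and no label ties a code to a cell type. The columns were therefore described in the blocks that the codes themselves form: 8 columns from BRP564 to BRP572 (higher-numbered), 12 from BRP528 to BRP543 (lower-numbered) and 8 that begin with F. No cell type was given to a block, no test was run between blocks, and each comparison below states only whether the ranges over columns overlapped. Levels are exonic counts per 1000000 exonic counts of the column (CPM).

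Exonic totals were 12969692 to 19798892 counts in the higher-numbered block, 17483754 to 26770944 in the lower-numbered block and 838343 to 14831505 in the F block. A count of 0 allowed a level of up to 0.112 to 0.231 CPM in the BRP columns and of up to 0.202 to 3.58 in the F columns, where 2338 to 7218 genes were found against at least 9869 in a BRP column. The summed level of 9 astrocyte markers was 2674 to 7155 CPM in the higher-numbered block, 208 to 2463 in the lower-numbered block and 1.19 to 4363 in the F block. That of 7 neuronal markers was 299 to 801, 4898 to 9982 and 1608 to 17800 in the same order, and that of 5 interneuron markers 0 to 42.6, 0.0572 to 2831 and 564 to 11673. Beside the lower-numbered median of 988 for the astrocyte sum, Slc1a2 alone had a median of 804. Its median in the higher-numbered block was lower, at 192, so this listed marker went against the order of the sums. In the F block Slc1a2 alone reached 4350 CPM, beside the highest astrocyte sum of 4363. The astrocytic water channel gene Aqp4 had a median of 0.981 in the lower-numbered block against 1131 in the higher-numbered block. Between these blocks 4 of the 9 astrocyte markers were separate and higher in the higher-numbered block, against 2.78% of all genes, and 0 were separate and lower. The sum of 5 microglial markers was at most 13.3 and 46.6 CPM in the higher- and lower-numbered blocks and reached 2093 in an F column, through Csf1r, and that of 4 endothelial markers was at most 19.7, 4.74 and 0.181.

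Id3, an inhibitor of E proteins, had the highest level of the 10 genes in the higher-numbered block. It ranged from 1650 to 3313 CPM over those 8 columns, with a median of 2502. In the lower-numbered block it ranged from 0 to 1123, with a median of 0.146, and in the F block from 0 to 1.496, with a median of 0. Every higher-numbered column thus lay above every other column. Within the lower-numbered block Id3 fell into unlike parts. Columns BRP528 and BRP529 held 1030 and 1123 CPM, BRP534 held 79.7, BRP536 held 14.5 and BRP541 held 12.2, and the other 7 columns held at most 0.179.

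Id1, the paralog most often used as a readout of BMP signalling, showed the same order of blocks. It ranged from 160 to 608 CPM, with a median of 284, in the higher-numbered columns. The lower-numbered columns ranged from 0 to 28.6, with a median of 0.570, and their highest value was again in BRP529. In the F block 2 of 8 columns held any Id1 count, 3 counts in all. Id1 and Id3 were the 2 of 10 genes whose ranges in the higher-numbered block lay above those of the lower-numbered block, and 0 of 10 lay below. Over all 18909 genes counted in those blocks, 2.78% were separate and higher and 2.18% separate and lower.

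**Figure D1:**
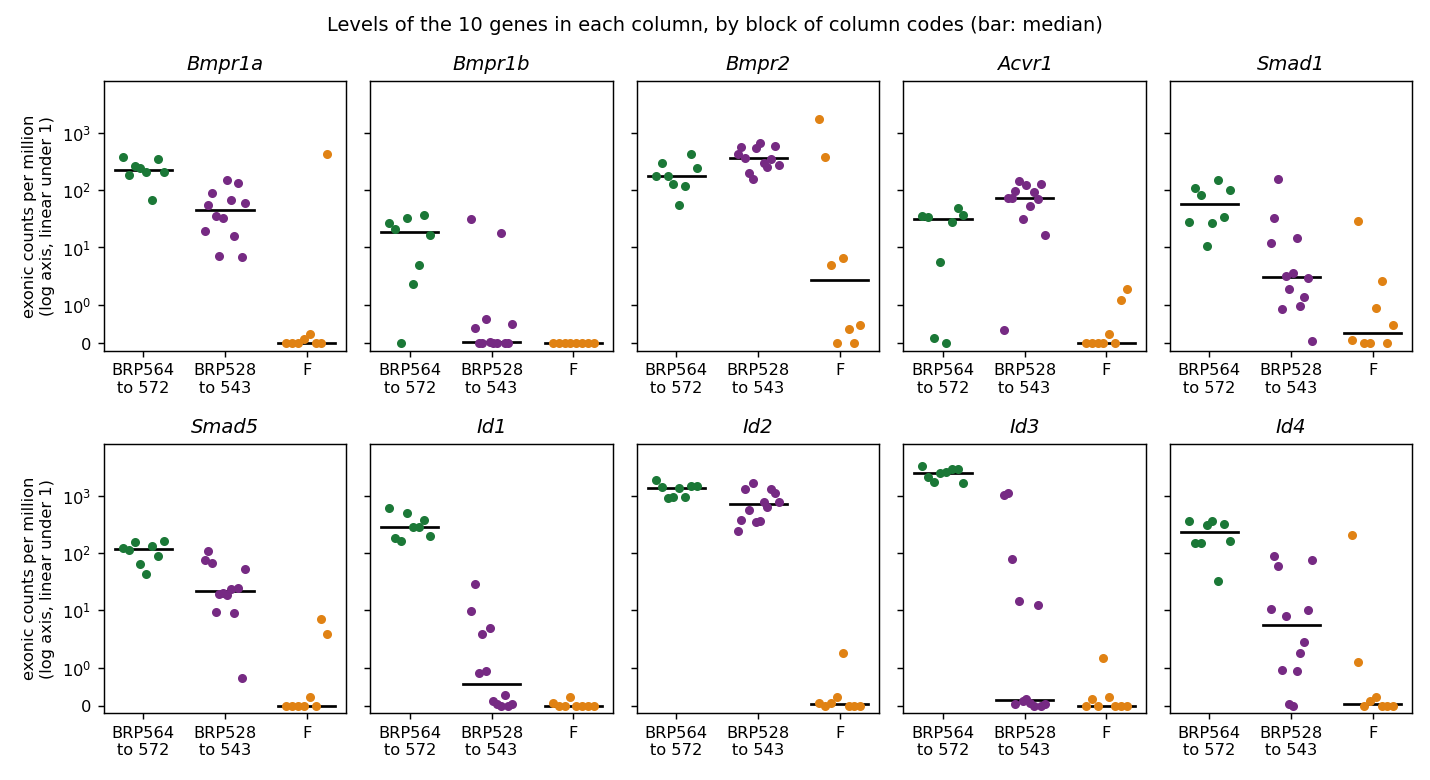
Exonic CPM (vertical axis, logarithmic above 1 and linear below) of the 10 genes in each of 28 columns, with 1 point per column and a bar at the median of each block of codes. Id1 and Id3 in the 8 columns BRP564 to BRP572 lie above all other columns, Id2 is high in both BRP blocks, and most F columns lie near 0.

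Id2, which is widely used in differentiated cells as well as in progenitors, was high in both BRP blocks. It ranged from 911 to 1864 CPM, with a median of 1378, in the higher-numbered columns and from 238 to 1657, with a median of 712, in the lower-numbered columns, so the blocks overlapped. BRP528, at 238, was the lowest BRP column and BRP537, at 342, the next. The F block ranged from 0 to 1.82 CPM, with a median of 0.0337, and held 12 Id2 counts over its 8 columns. Id2 was the 1 gene of 10 whose F range lay below the lower-numbered block, where 7.54% of 18760 genes did so. None of the 10 lay above, and over all genes 0% did.

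Id4, the family member known for setting the timing of oligodendrocyte and neural progenitor differentiation, varied more widely between columns. It ranged from 31.8 to 359 CPM, with a median of 231, in the higher-numbered block and from 0 to 89.8, with a median of 5.43, in the lower-numbered block. Those ranges overlapped through BRP570, which held 31.8, and through BRP529, BRP543 and BRP534, which held 89.8, 75.8 and 58.8. In the F block column F1 held 201 CPM from 2988 counts, and the other 7 columns held at most 1.26.

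The make-up of Id expression, set per kb of annotated exon so that genes of unlike length could be compared, changed between the blocks. Id3 was the highest Id gene in 8 of 8 higher-numbered columns, with 53.0% to 72.1% of the summed Id level and a median of 61.0%. Id2 came next there with a median share of 23.8%, before Id1 with 10.7% and Id4 with 2.72%. In the 10 columns from BRP534 to BRP543 Id2 was highest in each, with 89.9% to 99.9% and a median of 98.5%. BRP528 and BRP529 stood apart from those 10, since Id3 made up 84.1% and 76.0% of their Id level and Id2 14.3% and 18.2%. Shares of summed CPM values without division by length gave Id3 a median of 56.5% in the higher-numbered block and Id2 a median of 99.0% in BRP534 to BRP543.

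**Figure D2:**
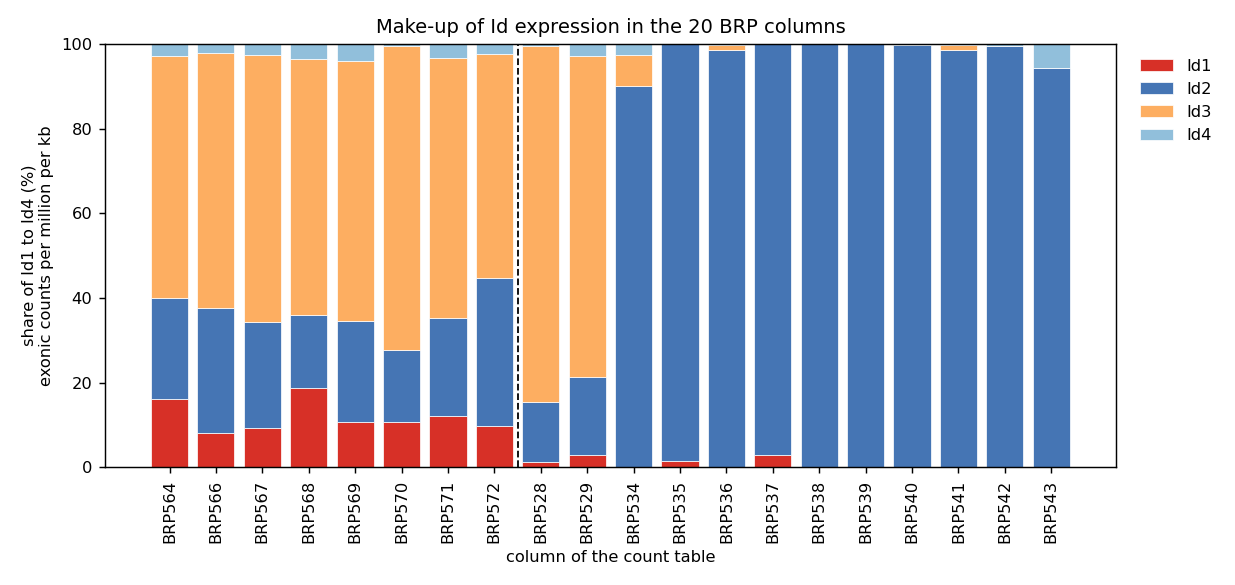
Share in percent (vertical axis) of Id1, Id2, Id3 and Id4 in their summed exonic CPM per kb of exon, 1 bar per BRP column, with a dashed line between the higher-numbered columns on the left and the lower-numbered columns on the right. Id3 is the largest part in BRP564 to BRP572 and in BRP528 and BRP529, and Id2 is the largest part in BRP534 to BRP543.

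The markers of BRP528 and BRP529 were read beside those of BRP534 to BRP543, and their part in the Id levels was not tested. The sum of 4 glutamatergic markers was 0.0498 and 109 CPM in BRP528 and BRP529, below the range of 183 to 1057 in the other 10, and that of 5 interneuron markers was 2831 in BRP528 and 3.40 in BRP529 against 0.0572 to 340. Their astrocyte marker sums, 1786 and 2152, lay inside the range of 208 to 2463 of the other 10 columns, whose median was 818. Slc1a2 alone reached 2459 CPM in a lower-numbered column, so these sums do not show how the other astrocyte markers stood. The neuronal marker sums of BRP528 and BRP529 were 8577 and 4898 against a range of 7004 to 9982. Their sums of 5 oligodendrocyte-lineage markers, 610 and 332, lay above the median of 10.6 in BRP534 to BRP543, where the highest was 412. The sum of 2 markers of cycling cells, Mki67 and Top2a, spanned 28.3 to 142 CPM in BRP528 and BRP529. It spanned 0 to 249, with a median of 0.252, in BRP534 to BRP543 and 18.9 to 212 in the higher-numbered block. Without BRP528 and BRP529 the highest lower-numbered level was 79.7 CPM for Id3 and 4.89 for Id1.

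Bmpr1a, the type I receptor present in most neural cells, was the leading type I receptor of the higher-numbered block. It ranged from 67.5 to 386 CPM, with a median of 224, against 6.77 to 150, with a median of 45.8, in the lower-numbered block. The blocks overlapped through BRP570, at 67.5, which was exceeded by BRP534 at 89.2, BRP541 at 134 and BRP538 at 150. The other 7 higher-numbered columns held at least 187, above all lower-numbered columns. In the F block Bmpr1a stood at 421 CPM in F24, from 891 counts, and at 0.228 or less in the other 7 columns.

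Bmpr1b, a type I receptor linked to later neural differentiation, was the rarest of the 10 genes in exons. It ranged from 0 to 36.2 CPM, with a median of 18.7, in the higher-numbered columns, where 7 of 8 held at least 10 counts. In the lower-numbered block 4 of 12 columns held at least 10 counts, led by BRP528 at 31.1 and BRP540 at 18.1, and the median was 0.0187. No F column held an exonic Bmpr1b count. It was the 1 gene of 10 that was not found in at least 14 of 28 columns, a mark that 45.4% of all listed genes reached.

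Acvr1, the type I receptor whose activating mutation causes ectopic bone formation, had a higher median in the lower-numbered block. It ranged there from 0.349 to 145 CPM, with a median of 73.2, and from 0 to 48.9, with a median of 30.9, in the higher-numbered columns. The ranges overlapped through BRP528, BRP543 and BRP537, at 0.349, 16.5 and 31.2. In the F columns Acvr1 did not exceed 1.89 CPM, and 6 counts were found in all.

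Bmpr2, the type II receptor mutated in heritable pulmonary hypertension, was likewise higher by median in the lower-numbered block. It ranged from 155 to 668 CPM, with a median of 360, there and from 54.4 to 435, with a median of 176, in the higher-numbered block. Bmpr2 was the receptor most often found in the F columns, where F1 held 1746 CPM and F2 held 374 against at most 6.61 in the other 6.

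Per kb of exon, the receptors changed places between the BRP blocks. Among the 4 receptors Bmpr1a took 44.6% to 90.6% of the summed level per kb, with a median of 65.4%, in the higher-numbered columns, and it was the highest type I receptor in 8 of 8. In the lower-numbered block its share was 1.79% to 38.3%, with a median of 15.5%, and Acvr1 was the highest type I receptor in 9 of 12 columns, Bmpr1a in 2 and Bmpr1b in 1. Bmpr2 exceeded Bmpr1a per kb in 0 of 8 higher-numbered columns and in 11 of 12 lower-numbered columns. Since these are ratios within a column, the total used for scaling does not enter them.

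**Figure D3:**
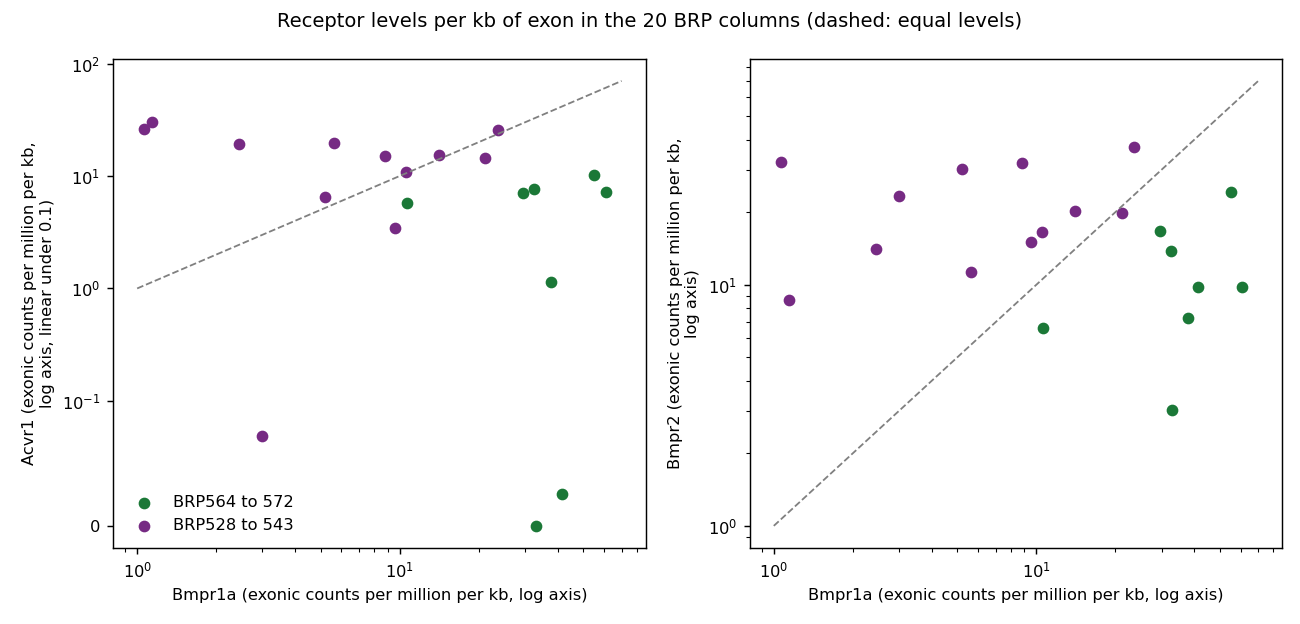
Exonic CPM per kb of exon of Bmpr1a (horizontal axis, logarithmic) against Acvr1 (left, logarithmic above 0.1) and Bmpr2 (right, logarithmic), 1 point per BRP column, with a dashed line of equal levels. All 8 columns BRP564 to BRP572 lie below the line in both panels, and 11 of the 12 columns BRP528 to BRP543 lie above it for Bmpr2.

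Smad5 and Smad1 carry the signal from these receptors, and both were higher by median in the higher-numbered block. Smad5 ranged from 42.8 to 159 CPM, with a median of 117, there and from 0.730 to 106, with a median of 21.9, in the lower-numbered block. The highest lower-numbered Smad5 levels were in BRP529 and BRP528, at 106 and 75.3. Smad1 ranged from 10.6 to 150, with a median of 58.0, against 0.0510 to 157, with a median of 3.08, and its highest value of all columns was the 157 of BRP534. Among F columns Smad1 was 29.1 CPM in F2 and at most 2.59 in the others, and Smad5 was at most 7.16.

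Smad5 exceeded Smad1 per kb in most BRP columns. Smad1 was the higher of the pair in 2 of 8 higher-numbered and 2 of 12 lower-numbered columns. The log2 ratio of Smad1 to Smad5 per kb, with a pseudocount of 1 count, had a median of -0.55 in the higher-numbered block and of -2.37 in the lower-numbered block, and it reached from -8.76 to 2.18 in the latter.

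Between the higher-numbered and the F columns, 4 of the 10 genes had separate ranges, namely Id1, Id2, Id3 and Smad5, all higher in the BRP columns. Of all 17789 genes counted in those blocks 17.9% were separate in that direction and 0.0281% in the other. The share of counts in introns was 5.67% to 13.0% in the higher-numbered columns and 5.31% to 63.0% in the F columns. The part of depth and intronic share in this difference was not tested. Library kit is labelled for cultured and slice cells only and is not tied to a block, so its part was not tested either.

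Ordered by median level per kb, the higher-numbered block ran from Id3 at 1397 CPM per kb through Id2 at 565, Id1 at 245, Id4 at 59.9, Bmpr1a at 35.3, Smad5 at 15.8, Bmpr2 at 9.80, Smad1 at 9.27 and Acvr1 at 6.39 to Bmpr1b at 3.14. Of neighbours in that order, Id3 and Id2 had ranges that did not overlap, as had Id1 and Id4, and the other neighbours overlapped. In the lower-numbered block Id2 led at 292, above Bmpr2 at 20.0, Acvr1 at 15.2, Bmpr1a at 7.21, Smad5 at 2.95 and Id4 at 1.41, and the remaining 4 had medians of at most 0.492. There only Id2 and Bmpr2 did not overlap.

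Introns gave a second view of the receptor genes, which are long. In the GENCODE M21 annotation of GRCm38, Bmpr1b spans chr3:141837136-142169425 on the minus strand, with 326 kb of intron, Acvr1 spans chr2:58388644-58567157 on the minus strand, with 174 kb, Bmpr2 spans chr1:59763400-59879014 on the plus strand, with 97.6 kb, and Bmpr1a spans chr14:34410734-34503341 on the minus strand, with 86.3 kb. Bmpr1b had 6638 intronic against 3412 exonic counts and was found in introns in 28 of 28 columns, although its exons were found in 13. Its intronic share had a median of 99.7% in the lower-numbered and 50.2% in the higher-numbered columns. Acvr1 had 24698 intronic against 22467 exonic counts, with a median intronic share of 43.8% in the lower-numbered block.

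Bmpr1a and Bmpr2 were mostly exonic in the BRP columns and less so in many F columns. Bmpr1a had a median intronic share of 9.13% in the higher-numbered and 7.56% in the lower-numbered block, and in 5 of 8 F columns it held at least 10 intronic but under 10 exonic counts. The same held for Bmpr1b and Bmpr2 in 4 F columns each. What gave rise to the intronic counts was not tested.

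**Figure D4:**
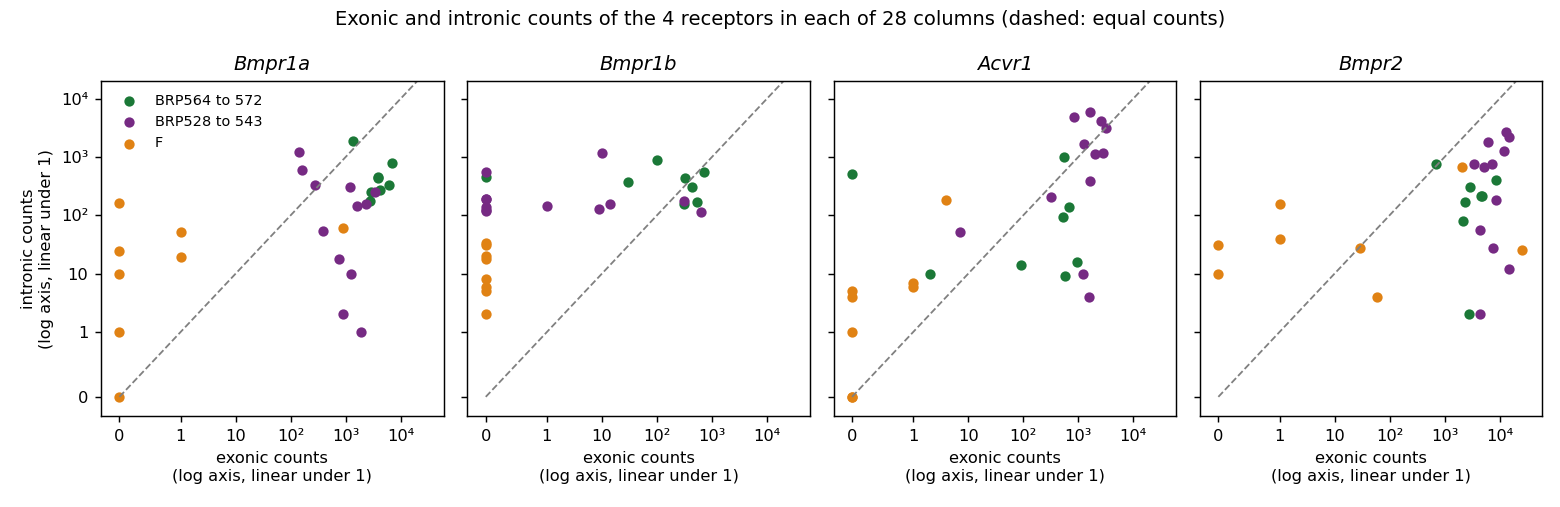
Exonic counts (horizontal axis) and intronic counts (vertical axis) of Bmpr1a, Bmpr1b, Acvr1 and Bmpr2, both logarithmic above 1 and linear below, 1 point per column coloured by block of codes, with a dashed line of equal counts. Most Bmpr1b points lie left of the line, with no exonic count in any F column, while Bmpr1a and Bmpr2 lie mostly to the right of it in the BRP columns.

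Set per 1000000 intronic counts, Bmpr1a had a median of 283 in the higher-numbered block, with a range of 112 to 688, against 26.9 and 0.309 to 126 in the lower-numbered block. Intronic Acvr1 had the opposite order of medians, 39.2 against 328, so both genes kept the order of their exonic medians. No member was separate between the BRP blocks in introns, where 0.172% of 16903 genes were separate and higher and 0.0355% separate and lower.

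The Id genes are short, with at most 0.950 kb of annotated intron, and gave few intronic counts. Id2, at chr12:25093799-25097140 on the minus strand, had 5936 intronic against 373206 exonic counts, Id3, at chr4:136143497-136145755 on the plus strand, 36 against 380763, and Id4, at chr13:48261228-48266026 on the plus strand, 78 against 38521. Id1, at chr2:152736251-152737410 on the plus strand, had 0 intronic counts, and its annotated transcripts together left no intron. All 20 of the nearest intron-bearing genes on its strand were listed at 0 too, against 0 to 3 of 20 for the other members. The 0 of Id1 is therefore no measurement of its introns.

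Smad1 lies at chr8:79338395-79399518 on the minus strand and had 3638 intronic against 14672 exonic counts. Smad5 lies at chr13:56703010-56742377 on the plus strand and had 417 against 24112. Id4 shares 82 bases of exon with the antisense gene A330033J07Rik, which had 4 exonic counts in all, and Bmpr1a shares 290 with the antisense gene Gm17110, which was not listed in either table. How strand was treated in counting is not given in the sources used here.

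Smad1 and Smad5 bind the GC-rich word GGCGCC and, with Smad4, the word GTCT or its complement AGAC. RefSeq promoter windows of build GRCm38.p6 were searched on both strands over the 250 bases before each start, since Id genes are direct targets of these factors. Windows were held for 9 of the 10 genes and not for Id1. GGCGCC stood before a start of Bmpr1a, Bmpr2, Smad5, Id2 and Id4, 5 of 9 genes, and in 9.59% of all 32851 windows. GTCT or AGAC stood before a start of Bmpr1b, Acvr1, Smad5, Id2 and Id3, 5 of 9 genes, and in 82.9% of all windows. Bmpr1b and Smad5 had 3 windows each, so a share of genes is not on the same footing as a share of windows. The stretches that hold the GC-rich word are given 5′ to 3′ on the strand of the gene, with the word in capitals, for the 2 Id targets and the 3 mediators that hold it. They precede RefSeq starts, and all but that of Id4 lie inside the wider GENCODE gene spans given above.
Id2, chr12:25096306-25096335, minus strand: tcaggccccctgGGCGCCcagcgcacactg
Id4, chr13:48260956-48260985, plus strand: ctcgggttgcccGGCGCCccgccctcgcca
Bmpr1a, chr14:34502727-34502756, minus strand: tgcgcgcgcgccGGCGCCtcttgctcgccc
Bmpr2, chr1:59764162-59764191, plus strand: ctccggcggccgGGCGCCgctgcctgcccc
Smad5, chr13:56703021-56703050, plus strand: ccccggcgagcgGGCGCCgagcgcttgtcc
Id3, whose levels separated the blocks, held no GGCGCC and 2 matches of GTCT or AGAC in its window. A match is a description of letters and not a binding site, and its absence says nothing of the factor.

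Other genes of the pathway were read from fixed lists by role. Their counts are to be read beside all genes, of which 45.4% were found in at least 14 columns and, between the BRP blocks, 2.78% were separate and higher and 2.18% separate and lower. Of 11 ligand genes 0 were found in at least 14 columns. Bmp4, a ligand that drives astrocytic differentiation of progenitors, was separate between the BRP blocks by the rule used here. It held 0.123 to 10.5 CPM, with a median of 1.59, in the higher-numbered columns and 0 in all 12 lower-numbered columns. A count of 0 there allowed up to 0.112 to 0.172 CPM, so the lowest higher-numbered level was not resolved from 0. At least 10 Bmp4 counts were held by 6 of 8 higher-numbered columns. Bmp7 reached 29.3 in a higher-numbered column with a median of 0.712, and Bmp3 had a median of 0.907 in the lower-numbered block. Bmp2 had a median of 0 in the lower-numbered block but reached 99.4 CPM in 1 of its columns, above the block median of Acvr1. Ligand transcripts were thus low by median, with columns that stood higher.

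Secreted antagonists and modulators were higher in exons. Of 11 such genes 6 were found in at least 14 columns, near the 45.4% of all genes, and 1 was separate between the BRP blocks, where 2.78% of all genes were. This was Fstl1, a secreted follistatin-like glycoprotein, at 619 to 1998 CPM against 0.164 to 576, with 0 counts in the F columns. Twsg1, which binds BMPs with chordin, had medians of 194 and 68.0 in the higher- and lower-numbered blocks, and Nog, which encodes noggin, of 93.2 and 0.

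Of 9 other receptors and co-receptors 6 were found in at least 14 columns, against 45.4% of all genes, and 2 were separate and higher in the higher-numbered block, against 2.78%. These were Tgfbr2, the type II receptor of TGF-beta, at 67.7 to 170 CPM against 0 to 49.8, and the BMP co-receptor Rgma at 5.71 to 36.7 against 0 to 4.14. Bambi, a pseudoreceptor that dampens the pathway and is induced by it, had medians of 57.3 and 0, and its ranges overlapped. Tgfbr1, a type I receptor of TGF-beta, had medians of 20.7 and 0 and overlapped as well. The co-receptor Rgmb was at 0 in all F columns and at 0.0409 to 12.6 in the lower-numbered ones. Of all genes, 7.54% were separate in that direction. A count of 0 in the F columns allowed up to 0.202 to 3.58 CPM, so the lowest lower-numbered level was not resolved from 0. At least 10 Rgmb counts were held by 9 of 12 lower-numbered columns. Acvr2a, a type II receptor shared with activins, had medians of 2.59 and 17.6 and thus the same order as Bmpr2.

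All 11 other Smads and regulators were found in at least 14 columns, and 0 were separate between the BRP blocks. Named by the highest median reached in any block, these included Ski, a corepressor that binds Smads, at 135 and 69.4 CPM in the higher- and lower-numbered blocks, Smad2 at 87.6 and 27.8 and Zeb2, a Smad-binding repressor, at 29.1 and 72.4. Smad6, an inhibitory Smad that BMP signalling induces, had medians of 39.5 and 0 in the same order. Smad9, the third Smad that BMP receptors phosphorylate, had medians of 23.6 and 0. The shared partner Smad4 had medians of 63.0 and 21.4, with ranges of 3.47 to 162 and 1.71 to 173 that almost coincided.

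Among 13 bHLH genes, partners or relatives of the factors Id proteins bind, 9 were found in at least 14 columns. Neurod1, a neuronal differentiation factor, was separate and lower in the higher-numbered block, at 0 in all 8 columns against 0.0448 to 136 CPM. A count of 0 in those 8 columns allowed up to 0.152 to 0.231 CPM, so the lowest lower-numbered level was not resolved from 0. At least 10 Neurod1 counts were held by 11 of 12 lower-numbered columns. The E protein gene Tcf4, a direct Id partner, was high in every block, with medians of 381, 464 and 1727 CPM in the higher-numbered, lower-numbered and F columns. Hes1, a Notch target and repressor of neurogenesis, had medians of 108, 0 and 0, and the oligodendroglial factors Olig1 and Olig2 of 680, 8.36 and 0 and of 129, 0.654 and 0.0337. The E protein genes Tcf12 and Tcf3 did not share the F median of Tcf4, with medians of 127, 16.2 and 0.0337 for Tcf12 and 23.7, 3.77 and 0 for Tcf3.

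**Figure D5:**
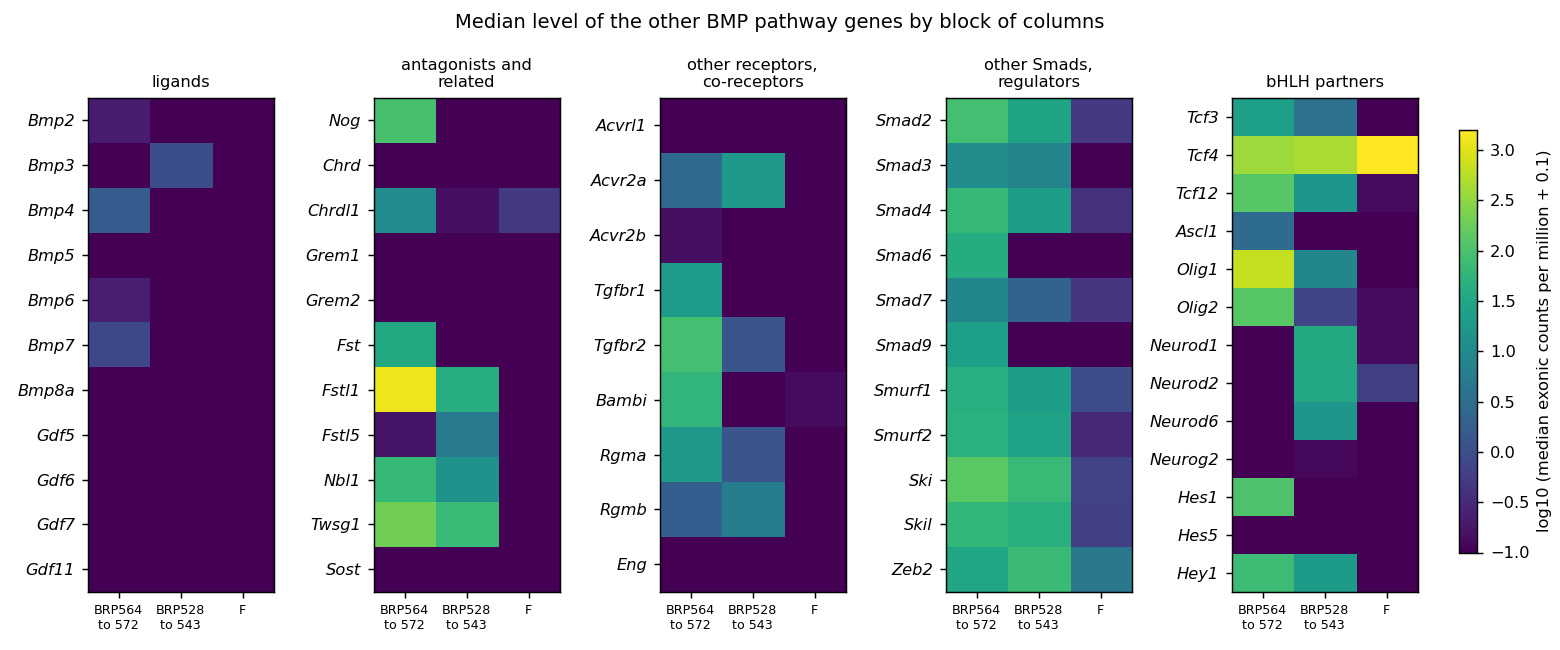
Median level per block of codes, as log10 of exonic CPM plus 0.1 (colour scale), for the ligands, antagonists and related genes, other receptors and co-receptors, other Smads and regulators, and bHLH genes of the fixed lists. Fstl1 and Olig1 are brightest in BRP564 to BRP572, with medians of 1242 and 680 CPM, Tcf4 is brightest in the F columns, with 1727, and most ligands are dark throughout.

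Spearman correlations across the columns are given as descriptions, since the 28 columns share blocks, library kits and depths. Id1 and Id3 had a rho of 0.89 over 28 columns, 0.71 over the 8 higher-numbered, 0.74 over the 12 lower-numbered and 0.55 over BRP534 to BRP543. Of these last 10 columns, 4 held at least 10 Id1 counts and 3 at least 10 Id3 counts. The 0.55 thus ranks mostly values at or near 0. The rho of Smad5 with Id3 was 0.79 over 28 columns, 0.81 in the lower-numbered block and -0.36 in the higher-numbered block, so its sign differed between the BRP blocks. Smad1 and Smad5 had rhos of 0.75, 0.67 in the higher-numbered and 0.49 in the lower-numbered block.

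Of the 11732 genes with at least 1000 exonic counts in all, those most like each member over 28 columns were named by rank of rho, except for Bmpr1b, which was found in fewer than 14 columns. For Id1 these were Wwtr1 (rho 0.94), Vim (0.92) and Fas (0.91), and for Id3 Itih5 (0.91), Gpr37l1 (0.91) and Mir682 (0.90). For Smad5 they were Myl12a (0.92), Atp6v0e (0.92) and Ctgf (0.92), for Bmpr1a Atp1b3 (0.91), Egln1 (0.90) and Cdkn1b (0.86), and for Id2 Acad11 (0.91), Sppl2a (0.91) and Hist1h1c (0.88). Those of Id4 were Rhog (0.88), Msi2 (0.88) and Fdx1 (0.87), those of Smad1 Lims1 (0.85) and Setd8 (0.84), those of Acvr1 Lnp (0.86), Cdk8 (0.84) and Dleu2 (0.84), and those of Bmpr2 Ssx2ip (0.84), Rtn1 (0.83) and Ncald (0.82). Within blocks the likeness was often weaker: Wwtr1 with Id1 had a rho of 0.21 in the higher-numbered and 0.89 in the lower-numbered columns, and Atp1b3 with Bmpr1a 0.62 and 0.28. Fas with Id1 differed in sign, with -0.57 in the higher-numbered and 0.82 in the lower-numbered columns.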

How the data were processed

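RNA-seq of 28 single mouse cortical cells was analysed. The authors deposited raw counts per gene and column, as whole numbers, in an exonic and an intronic table. The submitters' processing notes name bcl2fastq 2.17, STAR 2.4.0 and build mm10, without a role. The counting tool, annotation, strand setting and filters are not given in the sources used here.

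Since 0 columns could be matched to a sample label, no test, mean or error was computed and columns were not treated as replicates. Levels are counts per 1000000 of the column's exonic total (CPM), and levels per kb use the union of exons in GENCODE M21. A gene was found at 1 exonic count, and ranges were separate when the lowest value of a block exceeded the highest of the other. Floors are 3 counts and cover counting error only. Alternatives used edgeR 4.0.16 (TMM), DESeq2 1.42.0 (size factors), exonic plus intronic totals and thinning to 838343 counts. Python 3.11.15, numpy 2.4.6, pandas 2.3.3, scipy 1.17.1 and R 4.3.3 were used, and the code was tested on simulated data.

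Members and lists were chosen with earlier results of these data known. Named were all 10 members, list genes with separate ranges or up to 3 highest medians per list, and for each member found in at least 14 columns the 3 genes of highest rho, of which 1 is not reported here. Acvr2a, Bmp6, Smad4, Smad6, Smad9, Hes1, Tcf12, Tcf3, Aqp4 and Slc1a2 were named after their values were seen. The intronic levels, and the results without columns BRP528, BRP529, F1 or F24, were also added after the data were seen.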

Additional observations from a re-analysis of the deposited data

Results flagged for a closer look

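The higher-numbered and F blocks, of 8 columns each, were looked at for columns far from the rest, and the lower-numbered block of 12 was not. In 7 of 19 member and block pairs 1 column lay far from the others, all 7 in the F block, which the labels do not define as a group. Chance flags about 1 in 20 groups of normally spread values, a rate that does not apply to F columns, which were mostly at or near 0. The levels were 421 CPM for Bmpr1a in F24 (891 exonic counts), 1746 for Bmpr2 in F1 (25903 counts), 201 for Id4 in F1 (2988 counts) and 29.1 for Smad1 in F2 (161 counts). Those of Id3 in F7, 1.496 (13 counts), Id2 in F11, 1.82 (8 counts), and Id1 in F7, 0.230 (2 counts), rest on few counts. The cause was not tested.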

How the results depend on the processing

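Id1 and Id3 stayed separate between the BRP blocks with exonic plus intronic totals, TMM factors, DESeq2 size factors, thinning and without BRP528 and BRP529. Between the F and the lower-numbered block 1 gene, Id2, was separate in each setting run, but 2 were without BRP528 and BRP529 (Acvr1 added), and 2 without F24 (Bmpr1a added). Of 10 members 9 were found in at least 14 columns, 10 with intronic counts added and 8 after thinning. Of medians of at least 1 CPM, per block or over all columns, those that moved by over 1.5-fold were 20 of 25 with DESeq2 size factors, 5 of 25 with TMM factors, 4 of 25 after thinning and 1 of 7 without BRP528 and BRP529 (Id4 in the lower-numbered block, 5.43 to 2.31). Medians under 1 CPM were not counted there, and they also moved: without BRP528 and BRP529 that of Id1 in the lower-numbered block went from 0.570 to 0.209, and over all columns that of Id3 went from 0.862 to 3.72 with DESeq2 factors. With DESeq2 factors the higher-numbered medians fell to 1438 CPM for Id3, 729 for Id2, 122 for Bmpr1a and 58.9 for Smad5, so levels across blocks depend on the scaling and within-column ratios do not. The cause was not tested. No paired analysis was possible because the columns carry no replicate number and no test was run. Depth limits the F columns most, where a count of 0 allows up to 3.58 CPM.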
